A study of Mus musculus with 8 samples.

Results

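The genes described here are 10 genes of the choroid plexus, the secretory tissue of the brain ventricles, and their abundance in young and aged mouse brain. They are transthyretin (Ttr), folate receptor alpha (Folr1), alpha-klotho (Kl), Sostdc1, the water channel Aqp1, the sodium bicarbonate cotransporter Slc4a5, Clic6, claudin 2 (Cldn2), the transcription factor Otx2 and the prolactin receptor (Prlr). They are 10 of the 22430 genes in the count table, and all 10 were abundant enough to be tested. The RNA came from hemispheres, so the level of a member need not be that of the choroid plexus alone. They were chosen with their difference between ages known, so that difference is given for them as a description. Where a member is said to be called, this only places it by the thresholds applied to every gene and supports nothing.

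Poly(A) RNA was sequenced from brain hemispheres of 8 male C57Bl/6JRj mice, 4 at 6 months (6m, young adult) and 4 at 24 months (24m, aged). No mouse carried a transgene or received a treatment per the labels and methods, so age was the planned difference between the groups. RNA quality per library was not examined here, and a difference in it between the groups could not be told apart from age. The labels name the tissue whole brain while the protocol names a hemisphere, and transcripts of neurons (Snap25), astrocytes (Aqp4), oligodendrocytes (Mbp) and microglia (Cx3cr1) were present in every library.

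The choroid plexus is a folded sheet of epithelial cells around a capillary core that secretes cerebrospinal fluid. Its epithelium moves water, ions and bicarbonate into the ventricle, carries folate and thyroid hormone across the barrier between blood and fluid, and releases proteins such as transthyretin and the shed form of alpha-klotho. It is also a known site of the prolactin receptor, a single-pass cytokine receptor that signals through the kinase Jak2 and the STAT5 transcription factors.

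Levels are given as counts per 1e+06 (CPM) after scaling by trimmed mean of M values (TMM), with the SD over 4 mice, and differences as log2 fold changes of 24m over 6m with their standard error from edgeR. Library totals were 63460940 to 103462414 counts, so 3 counts correspond to 0.0290 to 0.0498 CPM, and even the least abundant member, Cldn2, had 29 counts or more in every library. A pattern of the whole series touches each value that follows: fold change rose with transcript length over all genes. The slope of log2 CPM on each doubling of canonical transcript length, relative to the average library, was -0.28 to -0.16 in the 6m libraries and 0.26 to 0.39 in 24m replicates 2 to 4. The library labelled 24m replicate 1 stood apart from its group at -0.04. Each member is therefore also described with that trend removed and, where it mattered, without that library.

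Of the 10 members, 4 were called higher at 24m (Kl, Clic6, Cldn2 and Aqp1), 1 was called lower (Prlr) and 5 were not called (Ttr, Folr1, Sostdc1, Slc4a5 and Otx2). A call needed a shift of 0.58 or more on the log2 scale, up or down, together with an edgeR adjusted p no higher than 0.05. Among all 16730 genes tested, 25.3% were called higher and 18.3% lower, and 55.2% had no overlap between the 4 libraries of each age, as 5 of the 10 members did. Of all called genes 58.1% were higher, or 75.7% when libraries were scaled by their totals alone, which shifts the median of all genes to 0.21. The median log2 fold change was 0.31 over the members and -0.0034 over all genes tested. Because the members were picked with these differences in view, nothing is read from their share of calls.

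**Figure D1:**
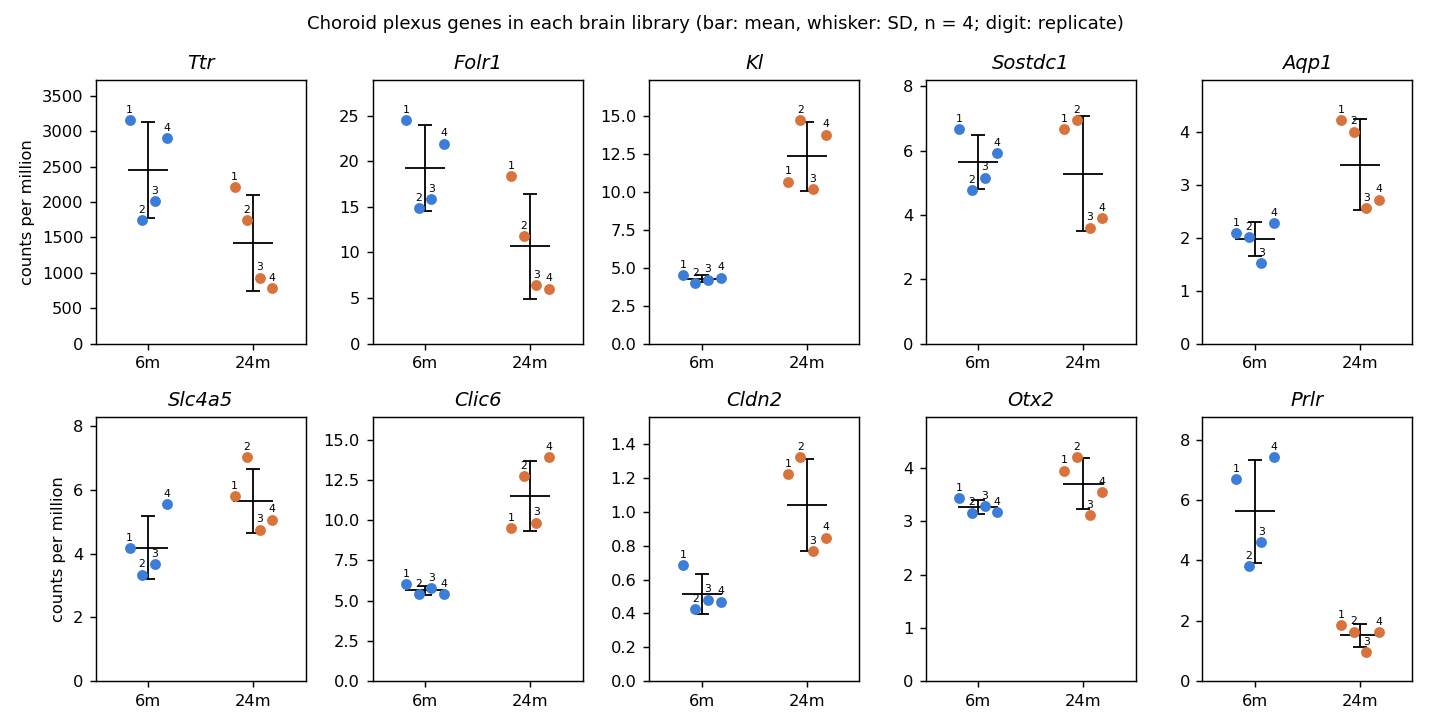
CPM of each of the 10 members (vertical axes, each starting at 0) in the 6m and 24m libraries, with the replicate number above each point, the mean as a bar and the SD as a whisker. Kl, Clic6, Cldn2 and Aqp1 lay higher in all 4 aged libraries than in any young one, Prlr lay lower in all 4, and the other members overlapped.

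The upstream sequence is shown for the 2 members at the ends of the range of fold change, Prlr at the low end and Kl at the high end. These are the 250 bases before the start of the canonical transcript in GRCm39, read 5′ to 3′ on the strand of the gene, chr15:10177008-10177257 (plus strand) for Prlr and chr5:150875822-150876071 (plus strand) for Kl, and neither holds an annotated exon. Capitals mark a match to the TATA box letters searched.
Prlr upstream: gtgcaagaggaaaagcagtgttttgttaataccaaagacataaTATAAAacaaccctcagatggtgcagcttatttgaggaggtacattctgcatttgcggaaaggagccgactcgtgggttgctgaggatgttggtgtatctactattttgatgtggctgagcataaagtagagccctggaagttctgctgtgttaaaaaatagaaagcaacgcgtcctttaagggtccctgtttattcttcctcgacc
Kl upstream: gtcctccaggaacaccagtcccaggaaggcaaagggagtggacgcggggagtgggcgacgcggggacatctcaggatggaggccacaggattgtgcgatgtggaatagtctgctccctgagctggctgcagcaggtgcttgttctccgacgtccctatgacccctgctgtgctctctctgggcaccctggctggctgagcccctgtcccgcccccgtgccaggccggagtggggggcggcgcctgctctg

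The windows differ in base composition, with a GC content of 43.2% for Prlr and 66.8% for Kl. Among windows of the same size, TATAAA on either strand was found in 2 of the 10 members (Slc4a5 and Prlr), against 11.9% of the 21571 protein-coding genes in the table. In Prlr the match spanned bases 207 to 202 before the start. TAATCC, the core letters of the Otx2 site, were found on either strand in 0 of 10 members and in 6.99% of all windows. TTCNNNGAA, the palindrome bound by STAT factors, was in 0 of 10 members and in 7.71% of all windows. Annotated exons cover the whole window of Ttr and part of the windows of Clic6, Slc4a5 and Otx2, so these counts include transcribed sequence. A match is a match of letters only, and its lack says only that these letters do not occur in this window. Other first exons of Prlr and Kl were not analysed here.

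Prlr showed the largest difference of the members under TMM scaling, while with library totals alone Kl (1.75) exceeded Prlr (-1.67) in size. Prlr was at 6.69, 3.80, 4.59 and 7.41 CPM in 6m replicates 1 to 4 and at 1.84, 1.63, 0.949 and 1.62 CPM in 24m replicates 1 to 4. The lowest young library stood above the highest aged one, and 24m replicate 3 was the lowest of all. The mean level went from 5.63 ± 1.70 CPM to 1.51 ± 0.389 CPM (n = 4 each), a ratio of 0.269, and the log2 fold change was -1.89 ± 0.26. In counts, the 6m libraries held 269 to 490 and the 24m libraries 79 to 191.

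Prlr was also the longest of the members, with a canonical transcript of 10383 bases, and the 1075 tested genes over 8 kb had a median log2 fold change of 0.77. With the length trend removed, its log2 fold change was -2.60 ± 0.36. Over the 17 alternative analyses it lay between -2.60 and -1.67, and leaving out single libraries gave -2.04 to -1.73. The gene (ENSMUSG00000005268, chr15:10177258-10349959 in GRCm39) is overlapped by 1 annotated gene on its own strand and by 3 on the other strand. How reads in shared exons were assigned was not stated for this table, a limit that also holds for Ttr, Folr1, Sostdc1, Clic6 and Otx2, each overlapped by 1 to 3 annotated genes.

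Alpha-klotho, a membrane protein that pairs with fibroblast growth factor receptors and is released into the cerebrospinal fluid after cleavage, had the highest fold change of the members. Kl was at 4.53, 4.00, 4.21 and 4.34 CPM in the 6m libraries and at 10.7, 14.7, 10.1 and 13.8 CPM in the 24m libraries. The young libraries lay within a narrow band and every aged library was above it. The mean rose from 4.27 ± 0.221 CPM to 12.3 ± 2.26 CPM, a 2.88-fold difference, with a log2 fold change of 1.53 ± 0.14. With the length trend removed the value was 1.02 ± 0.13, and Kl was called in all 17 alternatives.

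Clic6, a member of the intracellular chloride channel family that is abundant in secretory epithelia, followed Kl under TMM scaling. It was at 6.00, 5.42, 5.76 and 5.42 CPM at 6m and at 9.52, 12.8, 9.86 and 13.9 CPM at 24m. Its libraries also did not overlap, and 24m replicates 2 and 4 were the highest for both genes. The ratio of means was 2.04 and the log2 fold change 1.03 ± 0.14, or 0.65 ± 0.12 with the length trend removed. Cldn2 (1.02 ± 0.25) was level with Clic6 under TMM scaling, and Cldn2 (0.93) and Aqp1 (0.74) lay above it with the trend removed. The count of Kl relative to Clic6 was 0.732 to 0.802 in the young libraries and 0.988 to 1.15 in the aged ones.

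Aqp1 forms the water channel of the apical membrane of the epithelium. It was at 2.09, 2.02, 1.53 and 2.28 CPM at 6m and at 4.24, 4.02, 2.57 and 2.73 CPM at 24m, where replicates 1 and 2 were higher than replicates 3 and 4. The mean rose from 1.98 ± 0.323 to 3.39 ± 0.861 CPM and the log2 fold change was 0.77 ± 0.21, close to the 0.74 ± 0.20 found with the length trend removed. On quantile-normalized counts with DESeq2 it was 0.56, under the threshold.

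Claudin 2 is the pore-forming tight junction protein of leaky epithelia. Cldn2 was at 0.686, 0.424, 0.481 and 0.469 CPM at 6m and at 1.23, 1.32, 0.768 and 0.848 CPM at 24m. Its level was low, with 29 to 45 counts in the young and 64 to 127 counts in the aged libraries, yet the ages did not overlap. The log2 fold change was 1.02 ± 0.25, and 0.93 ± 0.25 with the length trend removed.

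Ttr, which binds thyroxine and retinol-binding protein and is the classical transcript of this epithelium, was the most abundant member. Its level was 3157, 1747, 2008 and 2897 CPM in the 6m libraries and 2208, 1744, 930.0 and 783 CPM in the 24m libraries. The aged libraries were not alike: 24m replicate 1 was higher than 6m replicates 2 and 3, while 24m replicates 3 and 4 were well below every young library. 24m replicate 2 was level with the lowest young library, 6m replicate 2, and just under it, so the overlap of the ages rests on 24m replicate 1. The mean was 2452 ± 681 CPM at 6m and 1416 ± 676 CPM at 24m, with a log2 fold change of -0.79 ± 0.33. That value was -0.24 ± 0.25 with the length trend removed and -1.08 without 24m replicate 1. Of 17 alternatives, 5 called Ttr lower.

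Folr1, the receptor through which the epithelium takes up folate for delivery to the brain, went the same way library by library. It was at 24.5, 14.8, 15.8 and 21.9 CPM at 6m and at 18.4, 11.8, 6.40 and 6.04 CPM at 24m. The highest library of each age was replicate 1, and the ages overlapped. The log2 fold change was -0.85 ± 0.34, which became -0.32 ± 0.26 with the length trend removed and -1.25 without 24m replicate 1. Of 17 alternatives, 6 called Folr1 lower. Folr1 (ENSMUSG00000001827) is overlapped by 1 annotated gene on the other strand.

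Sostdc1, a secreted antagonist of BMP and Wnt signals, did not separate the ages. It was at 6.68, 4.78, 5.16 and 5.93 CPM at 6m and at 6.68, 6.95, 3.60 and 3.91 CPM at 24m. Replicates 1 and 2 of 24m were at or above the top of the young range and replicates 3 and 4 below its bottom. The log2 fold change was -0.09 ± 0.23, but -0.33 on quantile-normalized counts, 0.12 with library totals alone and 0.28 ± 0.19 with the length trend removed. Leaving out single libraries gave -0.25 to 0.05, and no alternative called it.

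Slc4a5, which carries sodium with bicarbonate at the apical membrane, was at 4.18, 3.34, 3.68 and 5.57 CPM at 6m and at 5.81, 7.03, 4.75 and 5.07 CPM at 24m. Only 6m replicate 4 reached into the aged range. The log2 fold change was 0.43 ± 0.19, and -0.05 ± 0.21 with the length trend removed. It was called higher in 2 of 17 alternatives, at 0.60 without 6m replicate 4 and at 0.66 under library totals alone.

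Otx2, the homeodomain factor needed to form and keep the choroid plexus, varied least. It was at 3.44, 3.17, 3.28 and 3.18 CPM at 6m and at 3.96, 4.21, 3.12 and 3.55 CPM at 24m. Its log2 fold change was 0.18 ± 0.13, or 0.06 ± 0.12 with the length trend removed, and no alternative called it.

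**Figure D2:**
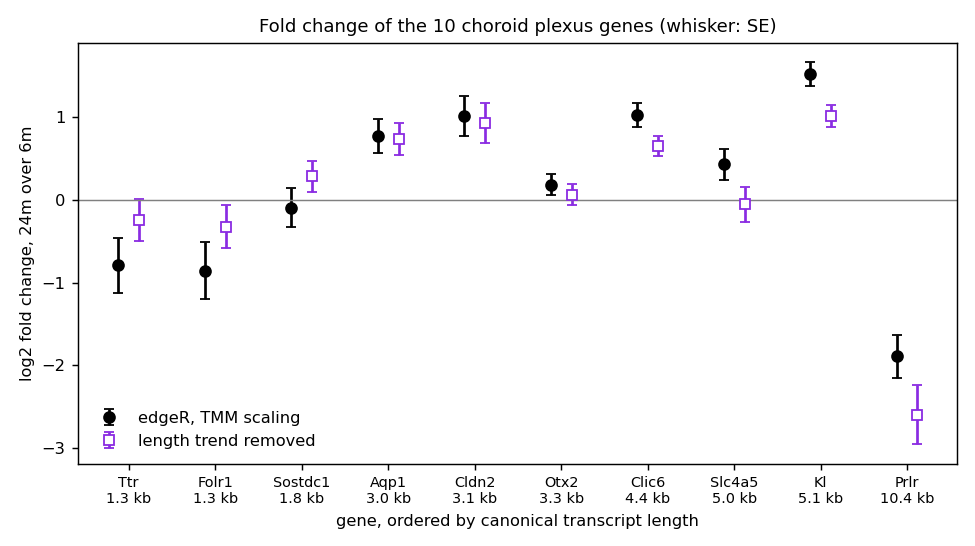
Log2 fold change of 24m over 6m (vertical axis, whisker SE) for the 10 members in order of canonical transcript length, with TMM scaling (filled) and with the length trend removed (open). Removing the trend moved Ttr from -0.79 to -0.24, Kl from 1.53 to 1.02 and Prlr from -1.89 to -2.60.

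The order of the members by length was close to their order by fold change, with the exception of Prlr. Ttr and Folr1, with canonical transcripts of 1316 and 1327 bases, had the most negative values after Prlr, Sostdc1 (1782 bases) lay near 0, and Kl (5118 bases) had the highest value. Spearman rho between length and log2 fold change was 0.31 over the 10 members. It was 0.80 over the 9 members other than Prlr, which was set aside after its value was seen. Over the 50 other choroid plexus genes described below rho was 0.68, and over 16677 tested genes with a length 0.56. These correlations are across genes, which share libraries and are not independent replicates.

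In the bin of 1 to 2 kb, the median log2 fold change was -0.50 over 2955 genes and -0.57 over 12 other choroid plexus genes. From 2 to 4 kb these medians were -0.02 and 0.25, and from 4 to 8 kb they were 0.50 and 0.31. Against the 4 to 8 kb bin, Slc4a5 (0.43) lay near the median of all genes while Kl and Clic6 lay above it. Against the 2 to 4 kb bin, Aqp1 and Cldn2 lay above and Otx2 (0.18) lay nearer to it. The part of transcript length in any member's difference was not tested.

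**Figure D3:**
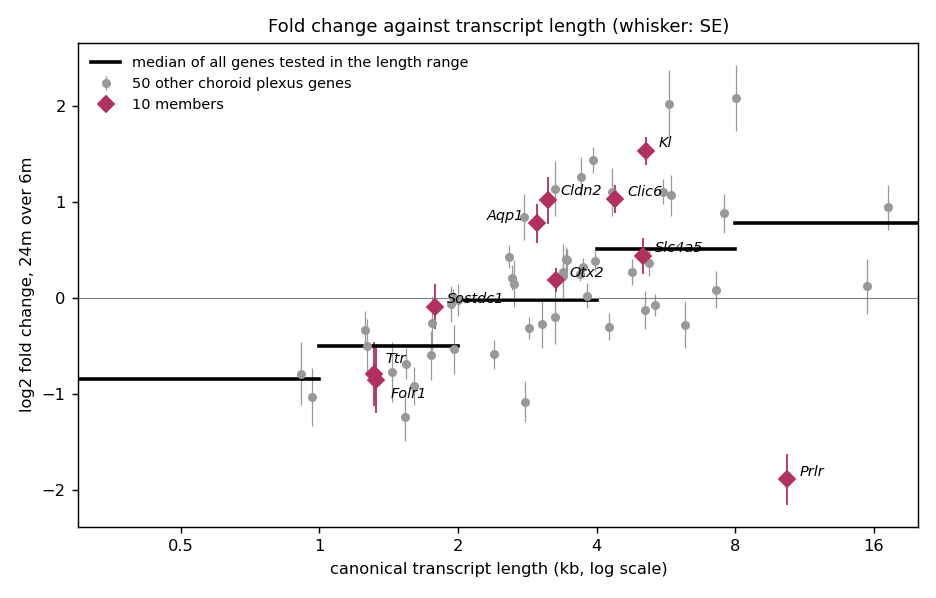
Log2 fold change (vertical axis, whisker SE) against canonical transcript length in kb (horizontal, log scale) for the 10 members (diamonds, named) and the 50 other choroid plexus genes (circles), with the median of all tested genes in 5 length ranges as black bars from -0.85 under 1 kb to 0.77 over 8 kb. Prlr, the longest member, is at -1.89, below every other gene drawn.

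Levels were compared between members per length, as CPM per kilobase of canonical transcript. Ttr had the highest level at both ages, 1863 ± 517 at 6m and 1076 ± 514 at 24m, and Folr1 followed at 14.5 ± 3.55 and 8.03 ± 4.37. At 6m the order went on with Sostdc1 (3.16 ± 0.473), Clic6 (1.29 ± 0.0653), Otx2 (0.998 ± 0.0393), Kl (0.834 ± 0.0431), Slc4a5 (0.832 ± 0.195), Aqp1 (0.665 ± 0.108), Prlr (0.542 ± 0.164) and Cldn2 (0.164 ± 0.0371). Among these neighbours, Kl and Slc4a5, Slc4a5 and Aqp1, and Aqp1 and Prlr lay within 1 SD of each other.

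At 24m the order changed. Folr1 stood above Sostdc1 (2.97 ± 0.996) by more than the SD of either, and Sostdc1, Clic6 (2.62 ± 0.493) and Kl (2.41 ± 0.441) each lay within 1 SD of the next. Kl stood above Aqp1 (1.14 ± 0.289), which could not be separated from Otx2 (1.13 ± 0.145) or Slc4a5 (1.12 ± 0.200) by their spread. Cldn2 (0.332 ± 0.0872) had passed Prlr (0.146 ± 0.0374), which was the lowest of the members per length.

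The counts of the members were then set against that of Ttr in the same library, which does not depend on how libraries were scaled. Folr1 kept nearly the same proportion, 7.57 to 8.49 counts for every 1000 of Ttr at 6m and 6.76 to 8.34 at 24m. Kl went from 1.43 to 2.29 per 1000 at 6m to 4.83, 8.44, 10.9 and 17.6 per 1000 in 24m replicates 1 to 4. Clic6 went from 1.87 to 3.10 per 1000 to between 4.31 and 17.8.

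Prlr went the other way relative to Ttr, from 2.12 to 2.56 per 1000 at 6m to 0.835, 0.938, 1.02 and 2.06 per 1000 at 24m. Relative to Folr1 the ages overlapped, at 0.256 to 0.338 counts of Prlr for each of Folr1 at 6m and 0.100 to 0.268 at 24m, where replicate 4 was the highest. Relative to the long members Kl, Clic6 and Slc4a5 the ages did not overlap. The count of Prlr over that of Kl was 0.951 to 1.71 at 6m and 0.0935 to 0.173 at 24m, and over that of Slc4a5 it was 1.14 to 1.60 and 0.199 to 0.319. Over that of Clic6 it was 0.702 to 1.37 at 6m and 0.0962 to 0.194 at 24m. These ratios use the contrast that chose the members and are a description. In bulk tissue, fewer cells of a type and less RNA per cell cannot be told apart.

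How the members varied between mice of the same age was asked separately, with the mean of each age removed, so that the difference between ages does not enter. The pooled SD of log2 CPM within an age was 0.58 for Ttr, 0.59 for Folr1, 0.43 for Prlr and 0.38 for Sostdc1, against a median of 0.22 over all genes tested. It was 0.19 for Kl, 0.20 for Clic6 and 0.14 for Otx2. Ttr was 0.41 and 0.28 above its age mean in 6m replicates 1 and 4 and 0.77 and 0.43 above it in 24m replicates 1 and 2. It was 0.45 and 0.25 below in 6m replicates 2 and 3 and 0.48 and 0.72 below in 24m replicates 3 and 4.

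Folr1 followed these deviations closely, with a Pearson r to Ttr of 0.98 over the 8 libraries. The r to Ttr was 0.94 for Sostdc1, 0.85 for Aqp1, 0.72 for Otx2, 0.70 for Slc4a5 and 0.69 for Prlr, but 0.08 for Kl and -0.29 for Clic6. Kl and Clic6 instead varied with each other (r = 0.91). Cldn2 was under the level of 1 CPM used for this comparison. These values describe 8 libraries that share their depth and length trend, and carry no p.

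**Figure D4:**
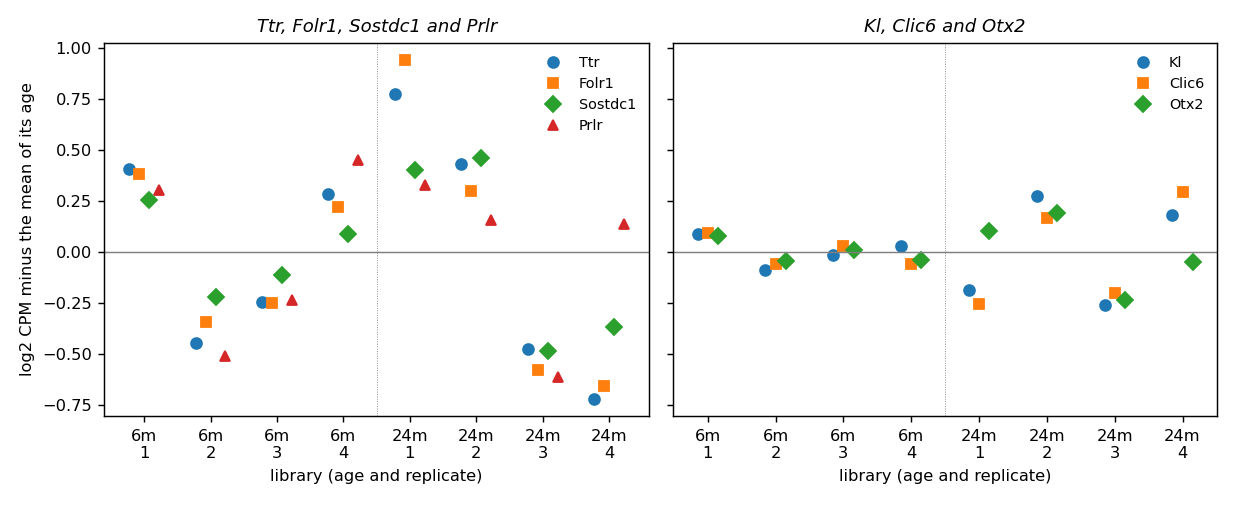
Log2 CPM minus the mean of the library's own age (vertical axis) in each library (age above, replicate below) for Ttr, Folr1, Sostdc1 and Prlr (left) and for Kl, Clic6 and Otx2 (right). Folr1 reaches 0.94 above its age mean and Ttr 0.72 below, while no value of Kl, Clic6 or Otx2 is more than 0.29 from the mean.

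The 10 genes most like Ttr by this measure were Ecrg4 (r = 0.996), Sema3b, Pspn, Slc16a8, Krt8, Abca4, Iftap, Epha1, Calml4 and Folr1 (r = 0.98). Of these, Ecrg4, Krt8, Abca4 and Calml4 also stand on the lists of other choroid plexus genes. An r above 0.9 to Ttr was reached by 17 of the 43 other choroid plexus genes with 1 CPM or more, and by 342 of all 13969 genes compared (2.45%). The median r to Ttr was 0.75 over those 43 genes and -0.08 over all.

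The 5 genes most like Prlr were Lhx5 (r = 0.96), Mab21l2, Naa15, Dusp19 and Arhgef5, none of which is a member or on the choroid plexus lists. An r above 0.9 to Prlr was reached by 0 of the 43 other choroid plexus genes and by 14 of all 13969 genes (0.100%). The median r to Prlr was 0.52 over those 43 genes and -0.04 over all. Among the members, the gene most like Prlr was Slc4a5 (r = 0.78). For Kl, compared in this way after its values were seen, 0 of the 43 genes and 8 of all 13969 genes (0.0573%) were above 0.9. The median r to Kl was 0.11 over those 43 genes and -0.0018 over all. The part of cells outside the choroid plexus in the levels of the members was not tested.

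The other choroid plexus genes were 50 genes known from this tissue and listed by role. By the edgeR test adjusted over all genes, 11 were higher at 24m, 7 were lower and 32 were not called, and the ages did not overlap for 22 of them. Those shares stand beside the 25.3%, 18.3% and 55.2% found over all genes. Their median log2 fold change was 0.05. With the length trend removed, 7 were higher and 6 lower, beside 18.1% and 14.5% of all genes. Without 24m replicate 1, 11 of the 50 were higher and 11 lower, beside 27.8% and 21.9% of all genes.

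Of 13 genes of ion and fluid transport, 3 rose and 1 fell. Slc12a2, the sodium, potassium and chloride cotransporter of the apical membrane, rose by 2.08 ± 0.35 on the log2 scale, from 5.18 ± 1.26 to 21.9 ± 9.66 CPM (adjusted p = 0.000767). Slc4a10, which loads bicarbonate into the epithelium from the blood side, rose from 13.6 ± 4.85 to 55.4 ± 21.3 CPM (2.02 ± 0.35, adjusted p = 0.000866). The carbonic anhydrase Car12 rose by 1.43 ± 0.14 (adjusted p = 5.60e-05). All 3 genes were still called with the length trend removed, at 1.29, 1.41 and 1.16.

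Another carbonic anhydrase, Car14, fell from 43.4 ± 6.75 to 28.8 ± 5.15 CPM (-0.59 ± 0.15, adjusted p = 0.00669), though the ages overlapped. That call was lost in 7 alternatives: with the length trend removed (-0.43), with library totals alone (-0.38), on quantile-normalized counts (-0.56), and when 1 of 4 libraries was left out, namely replicates 1 (-0.55) and 4 (-0.51) of 6m and replicates 3 (-0.55) and 4 (-0.52) of 24m. The sodium pump subunit Atp1b1 (0.43 ± 0.12) and the carbonic anhydrase Car2 (0.00 ± 0.09) were not called, but Atp1b1 was called higher with library totals alone (0.65) and on quantile-normalized counts (0.88). Slc12a2, Slc4a10, Car2 and Atp1b1 are also expressed by neurons or glia, so in hemisphere RNA their levels are not those of the choroid plexus alone. The same limit can hold for any other gene on these lists, in this group and in those that follow. The part of other cells in their differences was not tested.

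Of 20 carriers, uptake receptors and secreted proteins, 5 rose and 4 fell. The growth factor Igf2, which the choroid plexus and the meninges release, rose from 4.97 ± 1.00 to 11.9 ± 2.78 CPM (1.26 ± 0.21, adjusted p = 0.000684). The glucose transporter Slc2a12 rose by 1.10 ± 0.13 and the frizzled-related membrane protein Mfrp by 1.10 ± 0.25, with adjusted p of 0.000137 and 0.00390. Coagulation factor F5 rose by 0.88 ± 0.21 (adjusted p = 0.00442), and Tmem72, named after its value was seen because it completes the count, by 0.94 ± 0.24 (adjusted p = 0.00644). After removal of the length trend Igf2 (1.04) and Mfrp (0.77) were still called, and Slc2a12 (0.55), F5 (0.14) and Tmem72 (0.27) were not.

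Among those that fell, Calml4 changed most, from 5.94 ± 0.997 to 2.50 ± 0.917 CPM (-1.25 ± 0.25, adjusted p = 0.00199), and it was called with the length trend removed as well (-0.78). Wfdc2 (-1.04 ± 0.30), the retinol dehydrogenase Rdh5 (-0.92 ± 0.20) and the IGF-binding protein Igfbp2 (-0.86 ± 0.21) also fell, with adjusted p of 0.0131, 0.00307 and 0.00506. Those calls were lost with the trend removed, at -0.34, -0.48 and -0.31, and for Wfdc2 the ages overlapped. The most abundant genes not called were Enpp2 (0.26 ± 0.13), which makes lysophosphatidic acid, the peptidase Ace (0.36 ± 0.14) and the monoamine transporter Slc29a4 (-0.07 ± 0.12). Slc29a4 was called lower with the length trend removed (-0.59), and Enpp2 was called higher on quantile-normalized counts (0.61).

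Of 10 genes of junctions, keratins and matrix, 2 rose and 1 fell. The channel gene Trpm3, whose intron holds a microRNA of this epithelium, rose by 1.07 ± 0.22 (adjusted p = 0.00214) and Cldn1, named after its value was seen, by 1.14 ± 0.29 (adjusted p = 0.00673). Spint2, a membrane protease inhibitor, fell by 0.69 on the log2 scale, from 82.6 ± 9.10 to 51.2 ± 12.9 CPM (adjusted p = 0.00485). Trpm3 (0.44) and Spint2 (-0.22) were not called with the length trend removed, nor was Spint2 with library totals alone (-0.48) or on quantile-normalized counts (-0.57). Col9a3, a collagen chain and the most abundant gene of this group not called, was at -0.32 ± 0.12. The keratins Krt8 (-0.54 ± 0.25) and Krt18 (-0.77 ± 0.31), the filament pair of simple epithelia, were not called. Krt18 was called lower in 6 alternatives, at -1.09 without 24m replicate 1 and at -0.98 to -0.78 with DESeq2 size factors, DESeq2, quantile-normalized counts, limma-voom or a replicate block. Krt8 was called lower in 2, without 24m replicate 1 (-0.74) and on quantile-normalized counts (-0.76).

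Of 7 regulators, Otx1, a homologue of Otx2, rose by 0.84 ± 0.24 (adjusted p = 0.0130), though the ages overlapped. The ligand Bmp4 fell from 3.06 ± 0.492 to 1.45 ± 0.403 CPM (-1.08 ± 0.21, adjusted p = 0.00177). Both calls held with the length trend removed (0.87 and -1.06). Bmp7 (0.39 ± 0.11), Foxj1 (0.21 ± 0.13), the factor of ciliated cells, and Msx1 (-0.06 ± 0.19) were not called, though Bmp7 was called higher with library totals alone (0.61).

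**Figure D5:**
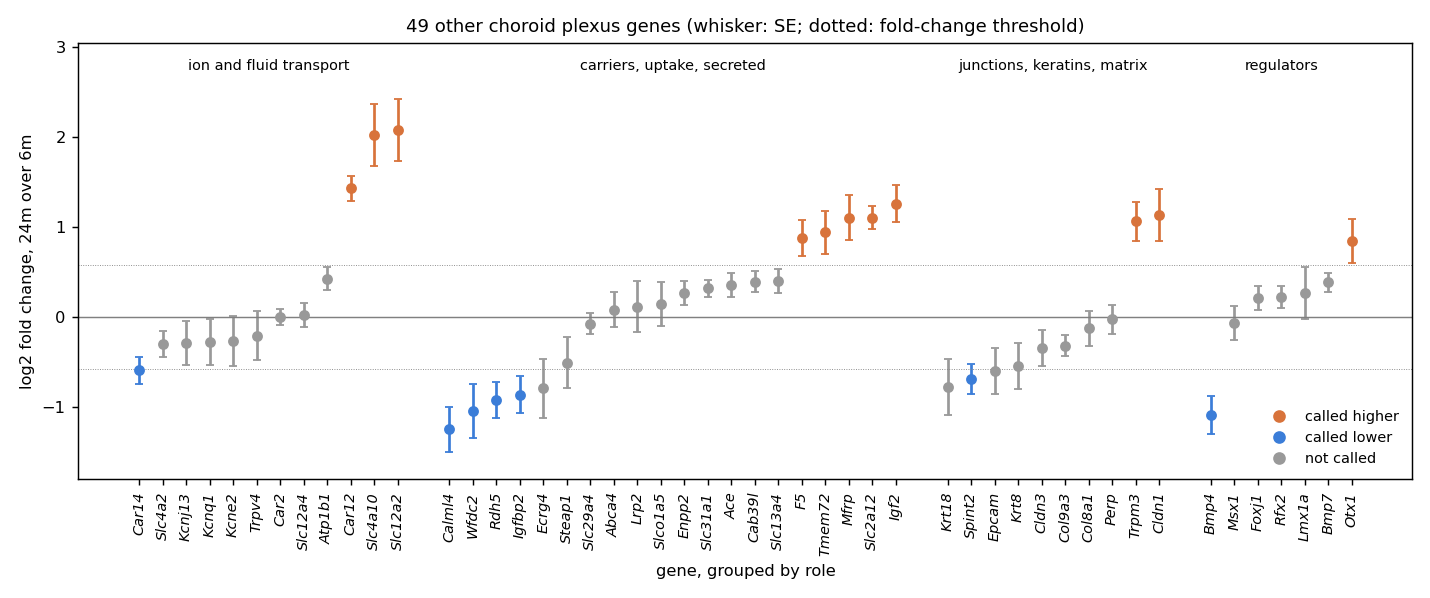
Log2 fold change of 24m over 6m (vertical axis, whisker SE) for all but 1 of the 50 other choroid plexus genes, grouped by role and ordered within each group, with the fold-change threshold as dotted lines. Calls in both directions occur in each group, from Calml4 at -1.25 to Slc12a2 at 2.08.

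The genes that act with the prolactin receptor were followed next. Prolactin itself was nearly without reads, with 1, 10, 7 and 2 counts for Prl in the 6m libraries and 0, 0, 3 and 0 in the 24m libraries, and it was not tested. Growth hormone, which belongs to the same hormone family and is made in the pituitary, had 24, 277, 29 and 146 counts for Gh at 6m and 25, 0, 25 and 0 at 24m and was the 1 gene of 15 tested on this list to be lower (adjusted p = 0.0114). Gh was not called with a replicate block, and it was not tested when a mean of 1 CPM was required. Its level is below that required by the rule for naming genes, and it was named after its values were seen.

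The kinase that starts signalling, Jak2, was at 9.83 ± 1.55 CPM at 6m and 13.0 ± 3.14 CPM at 24m and was not called (0.40 ± 0.19, adjusted p = 0.0977). Its value without the length trend was -0.17, and with library totals alone it was called higher (0.62). Stat5a rose from 2.66 ± 0.465 to 5.67 ± 0.474 CPM (1.09 ± 0.15, adjusted p = 0.000263) and Stat5b from 12.6 ± 1.04 to 34.2 ± 2.79 CPM (1.44 ± 0.10, adjusted p = 1.94e-05). Stat3 rose by 1.54 ± 0.12 (adjusted p = 2.42e-05), and for each of these 3 genes every aged library was above every young one.

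Among adaptors, Irs1, the insulin receptor substrate, rose by 2.25 ± 0.36 (adjusted p = 0.000629) and the phosphatase gene Ptpn11 by 1.57 ± 0.18 (adjusted p = 0.000122), while Grb2 (0.20 ± 0.07) and Shc1 (0.13 ± 0.11) were not called. Of the feedback inhibitors, Socs3 rose by 0.67 ± 0.18 (adjusted p = 0.00949; 0.48 and not called on quantile-normalized counts), and Cish (0.08 ± 0.14), Socs1 (-0.39 ± 0.22) and Socs2 (-0.12 ± 0.15), which STAT5 is known to induce and which were named after their values were seen, were not called. The growth hormone receptor gene Ghr, the closest relative of Prlr on the list, was at 2.81 ± 0.418 and 2.68 ± 0.218 CPM (-0.07 ± 0.14, adjusted p = 0.692).

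In all, 7 of 15 prolactin signalling genes tested were higher and 1 lower, and the median of their log2 fold changes was 0.40. Over all genes tested, 25.3% were higher and 18.3% lower, with a median of -0.0034. The same counts, 7 and 1, were found with the length trend removed, where Stat5a was at 0.83 and Stat5b at 0.94 and where 18.1% of all genes were higher and 14.5% lower. These genes are expressed widely in brain, so their values are those of the hemisphere.

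Partner genes of the other members were also listed, and 7 of the 26 tested were higher and 1 lower, beside the same 25.3% and 18.3% of all genes. Of 8 tested genes of the klotho system, 3 rose. Adam10, a protease that sheds klotho among many substrates, rose from 5.36 ± 1.70 to 18.6 ± 6.67 CPM (1.79 ± 0.32, adjusted p = 0.00109). The receptor genes Fgfr2 and Fgfr3 rose by 0.88 ± 0.17 and 0.59 ± 0.09 (adjusted p = 0.00186 and 0.000472), and Fgfr1 (0.38 ± 0.08), the receptor with which klotho forms the high-affinity site for FGF23, was called only with library totals alone (0.60). The call of Fgfr3 was lost when replicate 1 of 6m or replicate 3 or 4 of 24m was left out (0.55 to 0.57). Of these only Adam10 (1.35) was called once the length trend was removed. Fgf23 stood at 0.285 ± 0.0587 and 0.216 ± 0.0243 CPM and the related co-receptor gene Klb at 0.278 ± 0.0987 and 0.245 ± 0.0567 CPM, and neither was called. The receptor gene Fgfr4 (0.02 ± 0.29) and the sheddase gene Adam17 (0.14 ± 0.15) were not called either.

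Of 10 genes of thyroid hormone and retinol handling, 3 rose and 1 fell. The nuclear receptor gene Thrb rose from 0.463 ± 0.113 to 4.26 ± 1.66 CPM (3.19 ± 0.35, adjusted p = 9.78e-05) and was also called with the length trend removed (2.41). The deiodinase gene Dio2 rose by 0.96 ± 0.19 (adjusted p = 0.00199) and lost its call with the trend removed (0.30).

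Rbp4, the retinol carrier that travels bound to transthyretin, fell from 30.2 ± 2.78 to 16.3 ± 3.10 CPM (-0.89 ± 0.14, adjusted p = 0.000512), which was -0.14 and not called with the trend removed. Klf9 (-0.14 ± 0.14), Hr (0.56 ± 0.11) and Thra (-0.34 ± 0.14) were not called. With the length trend removed Klf9, a zinc finger factor induced by thyroid hormone, was called lower (-0.88 ± 0.09). Hr was called higher in 4 alternatives, at 0.78 with library totals alone, 0.68 on quantile-normalized counts, 0.65 without 6m replicate 4 and 0.58 without 24m replicate 4.

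Of 8 folate genes, 1 rose: Mtr, methionine synthase (0.93 ± 0.24, adjusted p = 0.00775), which was at 0.15 and not called with the trend removed. The folate carrier genes Slc46a1 (-0.42 ± 0.12) and Slc19a1 (0.22 ± 0.10), which act with Folr1, were not called. Mthfd1 (0.11 ± 0.07), the most abundant of the list, was not called either.

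Markers of neighbouring tissues were measured beside the members, since a hemisphere can carry more or less of each. The summed level of 10 ependymal markers was 98.6 to 126 CPM at 6m and 49.2 to 79.4 CPM at 24m, and 7 of the 10 were called lower, or 2 with the length trend removed. Those counts stand beside 18.3% of all genes lower and, with the trend removed, 14.5%, so the 2 of 10 is near the share of all genes. The same shares apply to each marker list that follows, with 25.3% and 18.1% for higher genes. Without 24m replicate 1, 27.8% of all genes were higher and 21.9% lower, and of the ependymal markers 1 was higher and 8 lower. Rarres2, named after its value was seen, made up the largest part of the ependymal sum, at 62.2 ± 6.54 CPM at 6m and 33.0 ± 6.44 CPM at 24m. The summed level of 5 blood genes was 5426 to 7604 CPM and 1242 to 4156 CPM, with all 5 lower under both analyses. The 9 meningeal markers overlapped, at 74.4 to 92.7 and 66.5 to 87.1 CPM, with 1 lower (Crabp2), or 2 with the length trend removed (Dcn and Col1a1). Without 24m replicate 1, 2 were lower (Crabp2 and Slc47a1). These meningeal genes were all named after their values were seen.

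The 7 pituitary markers summed to 1.68 to 5.20 CPM at 6m and 0.459 to 1.43 CPM at 24m, with Fshb at 0 in every library and 2 of the 3 tested lower, or 1 with the length trend removed and 3 without 24m replicate 1. The 5 pineal markers summed to 0.630 to 1.09 and 0.399 to 0.878 CPM, with Gngt1 at 0 throughout. Among 8 endothelial markers 1 was higher and 2 lower (sums of 50.6 to 70.7 and 37.6 to 55.5 CPM), and among 8 mural markers 2 were higher and 3 lower (177 to 239 and 121 to 159 CPM). Most of the mural sum was Vtn, named after its value was seen, at 138 ± 17.6 CPM at 6m and 97.0 ± 17.3 CPM at 24m, which was not called (-0.51 ± 0.14). With the length trend removed the endothelial counts were 0 and 1 and the mural counts 1 and 3. Without 24m replicate 1 they were 2 and 2 for endothelial and 2 and 4 for mural markers. The part of these tissues in the differences of the members was not tested. In the members themselves, the sum was 1789 to 3216 CPM at 6m and 835 to 2270 CPM at 24m, nearly all of it Ttr, so the ages overlapped.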

How the data were processed

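The deposited data are 1 table of integer counts for each gene in 8 libraries, not normalized and with no libraries pooled. For these the authors removed adapters (Trim Galore), mapped paired reads to GRCm39 (HISAT2 2.1.0, version per the submitters' notes) and counted genes (featureCounts). Strand and multimapping settings were not given in the sources used here. Identifiers were matched to GENCODE vM39 (22281 of 22430 genes, the rest holding 0.312% of counts).

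Genes above 5 counts in 4 or more of the 8 libraries (16730) were fitted in edgeR 4.0.16 under R 4.3.3 by quasi-likelihood, with TMM factors, age as the only term and Benjamini-Hochberg adjustment. The fit was tested on simulated data. The thresholds are those of the study. SE was the log2 fold change divided by the root of the F statistic, log2 CPM used a prior count of 2, and likeness used genes of at least 1 CPM on average. The length trend was removed with a smoothed offset per library over the exonic length of the canonical transcript. Other alternatives were other scaling, DESeq2 1.42.0 (also after quantile normalization), voom in limma 3.58.1, other filters, no fold threshold, each library left out, and a replicate block. Library pairs of one age differed by 8.18 to 417 in chi-square per degree of freedom, more than repeated reading of 1 library would give. That value cannot show that libraries come from separate mice, which rests on the methods. The limit given for depth covers counting error only.

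The members and lists were chosen with earlier results of these data known. Named in each list are up to 8 called genes of at least 1 CPM with the largest change, the 3 most abundant not called, and the defining ligand, receptor or kinase genes. The 10 genes most like Ttr and the 5 most like Prlr are also named. The named results of 3 listed genes are not reported here, though list counts include them.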

Additional observations from a re-analysis of the deposited data

Results flagged for a closer look

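Within each age, 132 groups of 4 libraries (66 genes at 2 ages) were checked for a single library far from the other 3, which chance gives in about 1 of 20 groups, and 4 were found. None is a member. The library 24m replicate 1 was the lowest for Igf2, at 7.80 CPM against 12.9 to 13.6 CPM in the other aged libraries. In 6m, Msx1 was lowest in replicate 2 (5.91 CPM, the others 7.43 to 7.68 CPM) and Grb2 in replicate 1 (110.2 CPM, the others 121 to 123 CPM). The 3 counts of Prl in 24m replicate 3 (0.0360 CPM) stood alone among aged libraries without a count.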

How the results depend on the processing

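No member reversed while called. The fold changes of Kl, Clic6 and Prlr kept their direction and call in all 17 alternatives and that of Cldn2 in the 16 that tested it. Kl was 1.75 with library totals alone, 1.29 on quantile-normalized counts and 1.02 with the length trend removed, and Clic6 1.25, 0.80 and 0.65. Otx2 was 0.40 with library totals alone and -0.06 on quantile-normalized counts. Library totals alone shifted the median of all genes to 0.21 and the share of higher calls from 58.1% to 75.7%. Counts were low for Cldn2 (29 to 127) and for Prl (0 to 10), which limits both, and the cause of each change below was not tested.

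All genes: library totals alone gave 1747 lower genes (3058 in the report) and no fold threshold 4999. Over single libraries left out, higher genes were 3844 to 4644 and lower genes 2623 to 3661. Other choroid plexus genes: higher 7 with the length trend removed and 18 with no fold threshold, lower 6 to 11 over single libraries left out, the 11 without 24m replicate 1. Prolactin signalling genes lower: 2 on quantile-normalized counts, 2 with no filter, 0 at 1 CPM or more. Partner genes: higher 3 with the trend removed, lower 2 with the trend removed, on quantile-normalized counts or with no fold threshold, and 1 to 2 over single libraries left out, the 2 without 24m replicate 1. Members among the 100 genes most like Ttr numbered 2, but 1 with library totals alone and 1 to 3 over single libraries left out. Those most like Prlr numbered 0, but 1 with library totals alone and 0 to 1 over single libraries left out.

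Named genes not called reversed in sign as follows. With the length trend removed: Enpp2 -0.19, Ace -0.14, Msx1 0.26, Jak2 -0.17, Shc1 -0.0579, Fgfr1 -0.24, Fgfr4 -0.11, Adam17 -0.25, Hr -0.0577, Mthfd1 -0.0256. With library totals alone: Slc29a4 0.14, Msx1 0.15, Ghr 0.15, Klb 0.0501, Klf9 0.0893. On quantile-normalized counts: Shc1 -0.0632, Adam17 -0.12, Thra 0.0647. Car2 was -0.00211 with DESeq2 size factors, -0.00213 with DESeq2, -0.00970 at 1 CPM or more and -0.0424 to 0.0728 over single libraries left out, over which Msx1 was -0.159 to 0.0848, Ghr -0.135 to 0.0215 and Fgfr4 -0.0914 to 0.246. Of the 55 named genes tested, 14 lost a call in 25 alternatives in all and 10 gained one in 20.

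Samples with the same replicate number did not deviate together (r of 0.27, 0.14, 0.08 and -0.35 for numbers 1 to 4), so the numbers do not pair the samples. With the replicate number as a block, 4112 genes were higher and 3130 lower, 11 other choroid plexus genes were higher and 9 lower, and no prolactin signalling gene was lower (0 of 15).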
